A study of Mus musculus with 12 samples.

Results

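The genes described here encode the main oxidising, hydrolysing and glutathione-conjugating enzymes of xenobiotic metabolism in the mouse: cytochromes P450 of families 1 to 4, flavin-containing monooxygenases (FMO), carboxylesterases (CES) and cytosolic glutathione S-transferases (GST). They were chosen by gene symbol from 23238 symbols in the count tables. The rule uses no change between groups, but earlier results of these data were known when it was set. In all 128 symbols matched the rule, Cyp2f2 having been left out of it, and the 62 with at least 120 counts summed over the 12 libraries were kept. The other 66 lay below that minimum, 3 of them with 0 counts. Cyp2u1 was just inside it with 126 counts and Cyp2b19 just outside with 117. The 62 members were 2 genes of family CYP1, 13 of CYP2, 1 of CYP3, 13 of CYP4, 5 FMO, 10 CES and 18 GST genes, and all 62 passed the filter on low counts and were tested.

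RNA from mouse lung was sequenced in 4 groups of 3 libraries: lung that had not been irradiated (NoIR) and lung taken 8 d, 11 d and 14 d after irradiation. The design text says that sampling after irradiation was limited to irradiated areas. The sources used here give no dose, strain or age, and do not say where in the lung the controls were taken. Replicates carry numbers but are not said to be separate animals, so p-values measure only how far these samples spread, and that spread may be technical. Libraries held 19624554 to 27765751 counts. On the first principal component of all genes (54.64% of the variance) replicate 1 of 11 d lay at 48.2, within the range of the 14 d libraries (32.34 to 49.74), while the other 11 d libraries lay at 20.88 and 23.16. The counts of families at 11 d that moved without that library are given below with both values. Markers of lung epithelium were abundant: 8 alveolar type 2 markers, Sftpc among them, summed to between 32275 and 35922 CPM (counts of a gene scaled to the same total in every library) in the unirradiated libraries. Alb, the main hepatocyte product, was at 1.45 ± 0.358 CPM (SD, n = 3), and Fgb, another hepatocyte gene, was at 0 in every library. Of 5 hepatocyte markers tested 2 were lower at 14 d, and the 8 on the list summed to 58.4 to 82.5 CPM in unirradiated lung and to ranges of 28.5 to 55.6, 35.3 to 45.7 and 31.3 to 40.5 CPM in time order afterwards.

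As background, P450 enzymes insert an oxygen atom into lipophilic substrates with electrons passed on by Por, the P450 reductase, and cytochrome b5. FMO enzymes oxygenate nitrogen and sulphur atoms, carboxylesterases split esters, including lipid esters, and glutathione S-transferases couple electrophiles, among them products of lipid peroxidation, to glutathione. In mouse lung these enzymes are best known from club cells and alveolar type 2 cells, and several P450 enzymes of family 4 act on fatty acids and eicosanoids instead of foreign compounds. Family 1 is induced through the aryl hydrocarbon receptor Ahr, which binds the xenobiotic response element (XRE), and many GST genes through Nfe2l2 at the antioxidant response element (ARE).

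The promoter windows of 6 members are shown because these genes mark the directions seen below. Ces2e and Ces2g, adjacent among the members on chromosome 8, were called in opposite directions against unirradiated lung at 11 d and 14 d. Both fell between 8 d and 14 d, and no test between them was run. The level of Cyp4f18 rose, and those of Cyp4b1, Fmo2 and Cyp1a1 fell. Each window is the 250 bases before the RefSeq gene start (build GRCm38.p6), written 5′ to 3′ on the strand of the gene. The windows are chr8:104926010-104926259 (Ces2e, plus strand), chr8:104961468-104961717 (Ces2g, plus), chr8:72009627-72009876 (Cyp4f18, minus), chr4:115647722-115647971 (Cyp4b1, minus), chr1:162898759-162899008 (Fmo2, minus, the first of 2 listed starts) and chr9:57697363-57697612 (Cyp1a1, plus). Capitals mark matches to the XRE core GCGTG, the ARE core TGACNNNGC or the p53 half-site, all searched on both strands.
Ces2e: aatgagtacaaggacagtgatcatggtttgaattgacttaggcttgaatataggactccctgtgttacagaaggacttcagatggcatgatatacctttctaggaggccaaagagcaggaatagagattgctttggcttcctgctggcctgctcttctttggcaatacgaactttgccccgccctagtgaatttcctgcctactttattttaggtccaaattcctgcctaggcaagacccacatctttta
Ces2g: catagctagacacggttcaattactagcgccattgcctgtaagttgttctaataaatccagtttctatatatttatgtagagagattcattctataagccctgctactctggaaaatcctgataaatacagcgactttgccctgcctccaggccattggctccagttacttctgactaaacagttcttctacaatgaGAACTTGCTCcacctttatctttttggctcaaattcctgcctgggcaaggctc
Cyp4f18: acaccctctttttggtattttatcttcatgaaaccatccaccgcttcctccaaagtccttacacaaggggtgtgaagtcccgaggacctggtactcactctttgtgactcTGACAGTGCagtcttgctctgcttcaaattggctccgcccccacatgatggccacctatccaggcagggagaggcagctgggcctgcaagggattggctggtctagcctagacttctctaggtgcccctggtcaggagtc
Cyp4b1: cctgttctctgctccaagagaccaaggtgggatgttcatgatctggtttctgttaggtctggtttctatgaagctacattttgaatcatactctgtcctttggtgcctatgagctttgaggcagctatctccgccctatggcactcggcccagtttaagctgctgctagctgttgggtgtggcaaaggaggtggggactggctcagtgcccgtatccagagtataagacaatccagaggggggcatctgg
Fmo2: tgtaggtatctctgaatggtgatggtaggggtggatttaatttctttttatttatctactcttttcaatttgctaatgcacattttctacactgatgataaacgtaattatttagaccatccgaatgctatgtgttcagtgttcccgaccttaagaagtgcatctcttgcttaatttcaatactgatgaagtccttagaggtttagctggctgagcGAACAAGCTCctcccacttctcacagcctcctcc
Cyp1a1: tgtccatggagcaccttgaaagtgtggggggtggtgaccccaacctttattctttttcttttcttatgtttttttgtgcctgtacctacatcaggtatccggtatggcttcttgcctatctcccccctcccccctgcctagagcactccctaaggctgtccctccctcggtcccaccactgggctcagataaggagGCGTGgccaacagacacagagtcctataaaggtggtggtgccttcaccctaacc
The Cyp1a1 window held 1 XRE core, starting at -54 from the gene start, and the Cyp4f18 window 1 ARE core at -140. A p53 half-site started at -53 in the Ces2g window and at -34 in the Fmo2 window, and none of the 3 motifs was found in those of Ces2e and Cyp4b1. The Ces2e and Ces2g windows shared a run of 13 bases, caaattcctgcct, that began at -34 and at -24. Of 32536 RefSeq promoter windows of this length 28.35% held the XRE core, 10.21% the ARE core and 7.124% the p53 half-site. Of the 47 members matched to a window 12 held the XRE core (25.53%), 3 the ARE core (6.383%) and 5 the p53 half-site (10.64%). A match describes the letters and is not a bound site.

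Levels of the members in unirradiated lung were compared per length, as CPM per kb of merged exons. Gstm1, a mu-class transferase, stood highest at 337 CPM per kb. It was followed by Ces1d, a carboxylesterase that hydrolyses triacylglycerol, at 255, Cyp4b1, a P450 abundant in lung epithelium, at 253, Cyp2b10, a mouse P450 inducible by phenobarbital in liver, at 191, and Fmo2, the FMO form typical of lung, at 188. Gsta4, which conjugates the lipid peroxidation product hydroxynonenal, had 142 CPM per kb and Gstm2 had 119. By contrast Cyp1a1 had 0.838 and Cyp2u1 0.0564 CPM per kb. In all, 45 members had a mean of at least 5 CPM in at least 1 group and are called expressed here. At 14 d Gstm1 was at 113, Ces1d at 106, Cyp2b10 at 60.6, Fmo2 at 56.7 and Cyp4b1 at 34.7 CPM per kb, so Cyp4b1 then lay below Gsta4 (73.8), Gsto1 (51.4) and Gstm2 (45.2). Cyp2c44 could not be given a length and is left out of these levels.

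**Figure D1:**
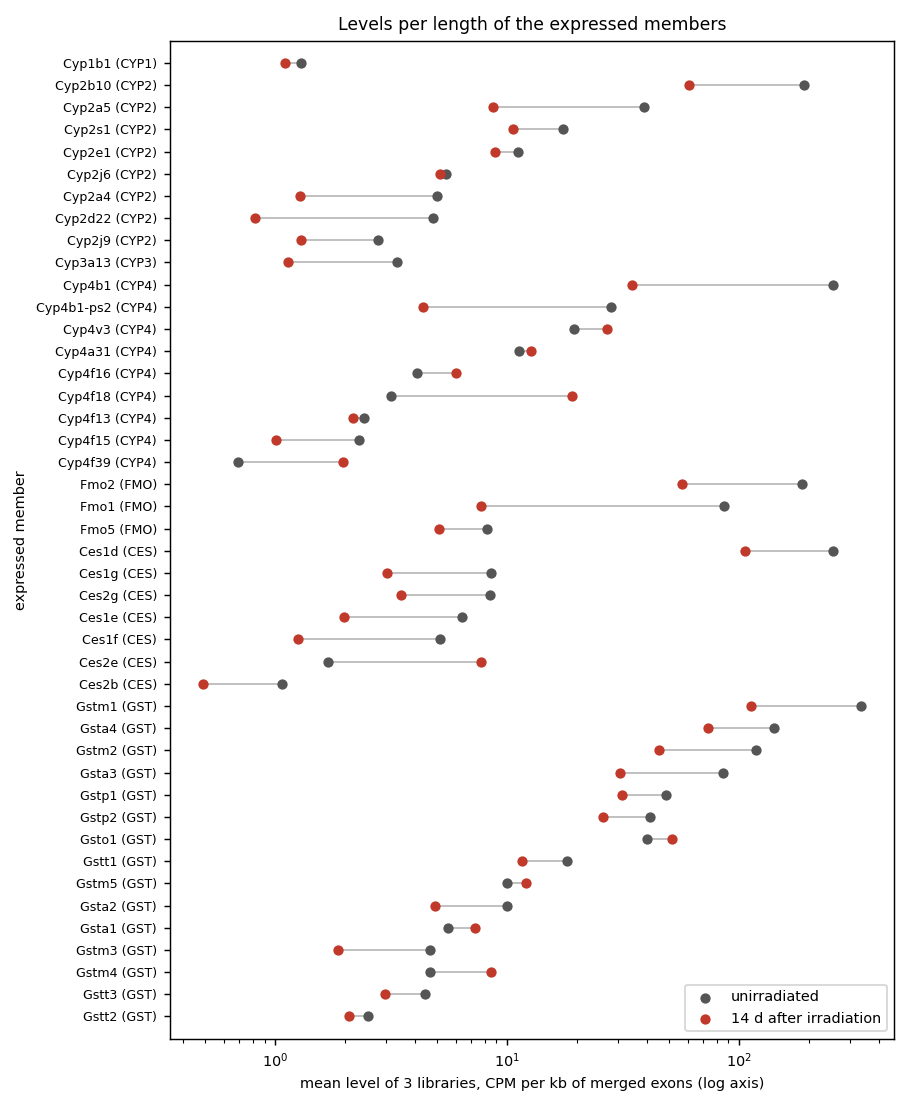
Mean level of 44 expressed members in unirradiated lung (grey) and at 14 d (red), in CPM per kb of merged exons on a log axis, each point the mean of 3 libraries. Most red points lie to the left of the grey ones, as for Gstm1 (337 and 113). Cyp4f18, Cyp4f39, Ces2e, Gstm4, Cyp4v3 and Gsto1 are among those that lie to the right.

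Most members that changed after irradiation fell. At 8 d 8 members were called higher and 20 lower than in unirradiated lung (edgeR quasi-likelihood test, Benjamini-Hochberg adjusted p below 0.05, n = 3 per group), where 13.0% of all 16484 genes tested were called higher and 10.6% lower, 23.6% in all. At 11 d 6 members were higher and 28 lower, against 19.4% and 17.8% of all genes, 37.2% together. At 14 d 6 were higher and 31 lower, against 20.0% and 18.9%, 38.9% together. As shares of the 62 members, those called lower made up 32.3%, 45.2% and 50% in time order, and those called higher 12.9%, 9.68% and 9.68%. The median log2 change of the members was -0.25, -0.54 and -0.68, beside 0.013, -0.010 and 0.0061 over all genes tested. Leaving out unirradiated replicate 1 or 8 d replicate 1 lowered the count of rises at 8 d to 4 and 5, and without 11 d replicate 1 the falls at 11 d numbered 21. The 3 comparisons share the same unirradiated libraries, so their counts are not independent of each other.

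**Figure D2:**
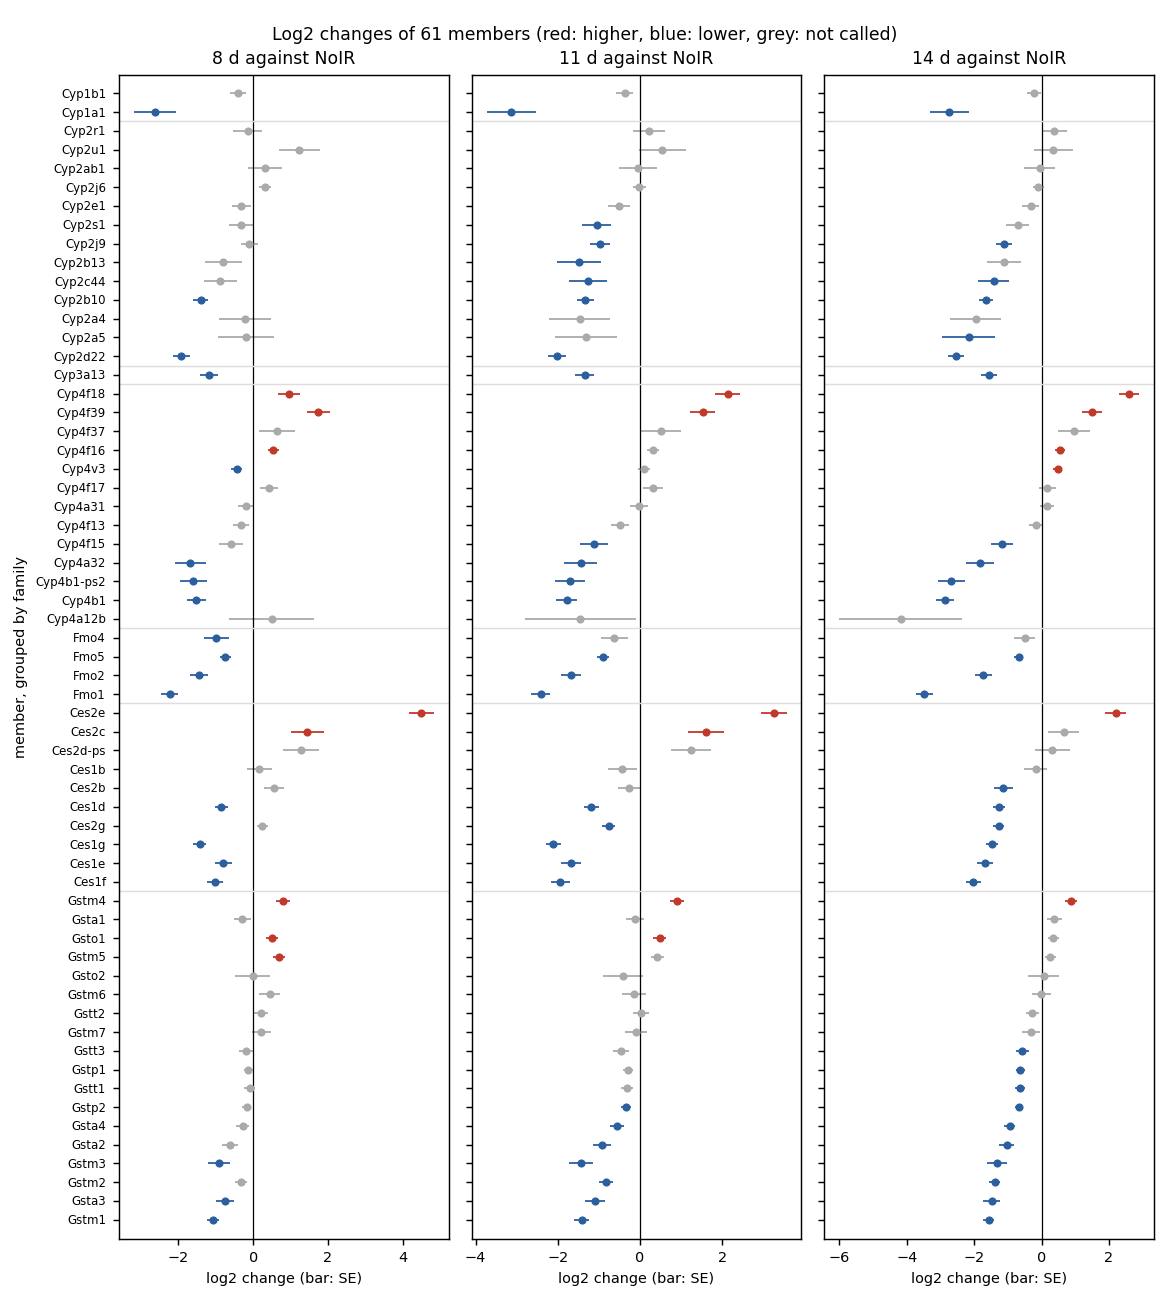
Log2 change of 61 members against unirradiated lung at 8 d, 11 d and 14 d, grouped by family, with the SE as a bar; red and blue mark members called higher and lower. The FMO rows lie left of 0 in every panel, while Ces2e lies furthest right at 8 d (4.50).

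Summed over the 62 members, the level was 4945 to 6146 CPM in the unirradiated libraries. After irradiation the ranges were 2710 to 3070, 1846 to 2761 and 1795 to 2140 CPM in time order. All irradiated libraries lay below all unirradiated ones. The group means at the 3 times were 0.537, 0.441 and 0.375 of the unirradiated mean. By family the ratio at 14 d was 0.243 for FMO, 0.340 for CYP3, 0.381 for CYP2, 0.400 for CYP4, 0.439 for CES, 0.475 for GST and 0.686 for CYP1. The sum of a family rests on few genes: Fmo2 made up 61.8% of the FMO sum and Ces1d 86.8% of the CES sum in unirradiated lung. Cyp4b1 made up 78.8% of the CYP4 sum there, and at 14 d Cyp4v3 took the largest share of that sum, 35.3%.

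**Figure D3:**
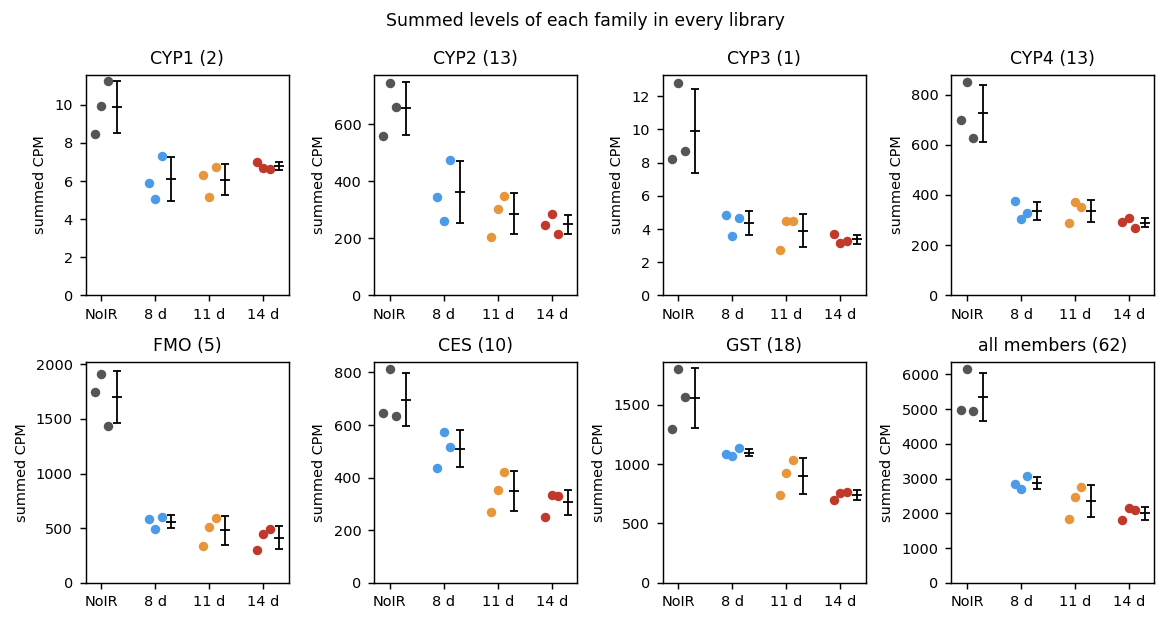
Summed CPM of the members of each family in every library, with mean and SD (n = 3) beside the points; the number of members stands in the panel title. The FMO sum went from 1440 to 1914 CPM without irradiation to 489 to 606 CPM at 8 d, while the GST sum was still 1071 to 1133 CPM at 8 d.

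Marker genes of several lung cell types moved over the same times as the members. Of 9 capillary endothelial markers 9 were lower at 14 d, and their summed level went from 3963 to 4241 CPM in unirradiated lung to ranges of 2501 to 2641, 1590 to 2225 and 926 to 1200 CPM in time order. Of 8 alveolar fibroblast markers 7 were lower at 14 d, with sums of 2864 to 3047, 1376 to 1589, 964 to 1337 and 887 to 1258 CPM in the same order. Of 8 club cell markers 5 were lower at 14 d, with sums of 15762 to 28669, 11391 to 12165, 6101 to 10805 and 5160 to 7806 CPM. At 14 d 5 of 8 alveolar type 2, 7 of 8 alveolar type 1, 6 of 6 smooth muscle, 6 of 6 mesothelial, 3 of 5 adipocyte and 1 of 8 ciliated cell markers were lower and none of these was higher. Markers of interstitial and lipid macrophages went the other way, with 9 of 9 higher at 14 d and sums of 255 to 319, 567 to 834, 2149 to 4279 and 4546 to 5158 CPM, and 5 of 5 T cell markers were higher. No marker of any of these lists was at 0 in all libraries of a group. Of 6 alveolar macrophage markers 2 were higher and 4 lower at 14 d, when 20.0% and 18.9% of all genes were called so. In bulk tissue fewer cells of a type and less RNA per cell cannot be told apart, and the part of these shifts in the results on the members was not tested.

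Of the FMO genes, Fmo1, Fmo2 and Fmo5 were called lower at each of the 3 times. Fmo1 (mm10 chromosome 1, 162829561 to 162866610, minus strand), which oxygenates amines and sulphides, had 518, 601 and 505 CPM in the unirradiated libraries, 116, 113 and 117 at 8 d, 67.5, 121 and 116 at 11 d, and 33.1, 57.4 and 55.7 at 14 d. The unirradiated libraries were far above all others, and the 14 d libraries lay below every 8 d and 11 d library. Its log2 change was -2.24 at 8 d (SE 0.23, edgeR adjusted p = 1.6e-05), -2.42 at 11 d (SE 0.23, adjusted p = 3.9e-06) and -3.47 at 14 d (SE 0.24, adjusted p = 2.3e-07), the last an 11.1-fold lower level. Fmo2 (chromosome 1, 162874317 to 162898726, minus strand) had 1134, 1189 and 832 CPM without irradiation, 414, 321 and 430 at 8 d, 231, 333 and 419 at 11 d, and 223, 335 and 396 at 14 d. Its groups after irradiation overlapped each other but not the unirradiated group, and the log2 change went from -1.44 at 8 d (SE 0.24, edgeR adjusted p = 0.00069) to -1.73 at 14 d (SE 0.24, adjusted p = 6.0e-05).

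Fmo5, a Baeyer-Villiger monooxygenase, was at 46.4 ± 0.707 CPM (SD, n = 3) without irradiation and 28.9 ± 2.48 at 14 d, a log2 change of -0.68 (SE 0.14, edgeR adjusted p = 0.0017). Fmo4, chosen here after its values were seen, was at 2.22 ± 0.499 CPM without irradiation and 1.12 ± 0.201 at 8 d. Its call at 8 d (-0.99, SE 0.33, edgeR adjusted p = 0.042) was lost when unirradiated replicate 2 or 3 or any 8 d library was left out and with library size alone as scaling (adjusted p up to 0.155), and at 11 d and 14 d it was not called. Fmo1, Fmo2 and Fmo4 lie on the minus strand of chromosome 1, while Fmo5 lies on chromosome 3.

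Among the P450 genes of families 1 to 3 none was called higher at any of the 3 times. Over all genes those called higher were 13.0%, 19.4% and 20.0% in time order. In family CYP2 2 of 13 members were lower at 8 d, 6 at 11 d and 5 at 14 d. These were 15.4%, 46.2% and 38.5% of the CYP2 members, beside 10.6%, 17.8% and 18.9% of all genes. Cyp3a13, the only CYP3 member, was lower at each time. The CYP2 falls numbered 3 at 11 d without unirradiated replicate 2 or 11 d replicate 1, and 3 at 14 d without unirradiated replicate 3 or 14 d replicate 1. Cyp2b10 (chromosome 7, 25897620 to 25926624, plus strand) had 404, 505 and 300 CPM without irradiation, 158, 131 and 168 at 8 d, 117, 173 and 189 at 11 d, and 121, 146 and 117 at 14 d. The lowest unirradiated library was above all irradiated ones, which overlapped each other. Its log2 change was -1.40 at 8 d (SE 0.21, edgeR adjusted p = 0.00025) and -1.66 at 14 d (SE 0.21, adjusted p = 2.0e-05). Cyp2d22 (chromosome 15, 82370527 to 82380260, minus strand), from the mouse subfamily related to the human debrisoquine hydroxylase, had 18, 20.5 and 17.7 CPM without irradiation, 4.73, 4.46 and 5.67 at 8 d, 3.09, 5.62 and 5.13 at 11 d, and 2.38, 3.73 and 3.51 at 14 d. All irradiated libraries lay far below the unirradiated ones, and the log2 change of -2.54 at 14 d (SE 0.23, edgeR adjusted p = 1.3e-06) was a 5.81-fold lower level. Cyp3a13, of the family that oxidises many drugs and steroids, went from 9.91 ± 2.52 CPM to 4.37 ± 0.707 at 8 d and 3.37 ± 0.286 at 14 d (log2 change -1.56, SE 0.23, edgeR adjusted p = 0.00011).

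Cyp1a1, the aryl hydrocarbon hydroxylase whose promoter window is printed above, was read at low depth. Its libraries held 2.49, 1.92 and 2.60 CPM without irradiation, 0.375, 0.721 and 0.0417 at 8 d, 0.338, 0.328 and 0.104 at 11 d, and 0.540, 0.339 and 0.167 at 14 d. The groups rest on 190 counts without irradiation and 25, 17 and 25 counts at the 3 times, and no irradiated library reached the unirradiated range. The log2 change was -2.63 at 8 d (SE 0.57, edgeR adjusted p = 0.0042; -3.50 without 8 d replicate 2), -3.13 at 11 d (SE 0.60, adjusted p = 0.0010) and -2.74 at 14 d (SE 0.57, adjusted p = 0.0015). This gene lies outside the naming rule and was chosen after its values were seen. Cyp1b1, which also metabolises polycyclic hydrocarbons, was at 7.56 ± 1.39 CPM without irradiation and 6.44 ± 0.0569 at 14 d and was not called at any time (log2 change -0.40, -0.38 and -0.23, SE 0.21 each).

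The remaining expressed CYP2 genes were called at some times or at none. Cyp2s1, a P450 of epithelia outside the liver, had 72.1, 99.4 and 85.8 CPM without irradiation and 27.6, 48 and 48.1 at 11 d. It was called at 11 d (-1.06, SE 0.35, edgeR adjusted p = 0.027), and without unirradiated replicate 2 or 3 or 11 d replicate 1 that call was lost, with an adjusted p up to 0.117. Of the comparisons between irradiated times only 14 d against 8 d is reported here, and in it Cyp2s1 was not called. Cyp2e1, the ethanol-inducible P450, was at 24.0 ± 8.17 CPM without irradiation and 19.2 ± 5.74 at 14 d, with log2 changes between -0.52 and -0.32 (SE 0.26) that were not called. Cyp2j6 and Cyp2j9, which belong to a subfamily of arachidonate epoxygenases and were chosen after their values were seen, differed in that Cyp2j9 was lower at 14 d (-1.10, SE 0.24, edgeR adjusted p = 0.0019) while Cyp2j6 was not called (-0.09, SE 0.16); the difference between these genes was not tested. Cyp2b13 and Cyp2c44, also chosen after their values were seen, rest on 94 and 84 counts over the unirradiated libraries. Cyp2b13 was called lower at 11 d (-1.50, SE 0.54, edgeR adjusted p = 0.041). That call was lost without unirradiated replicate 2 (-0.85), without any 11 d library and with limma-voom (adjusted p up to 0.251). Cyp2c44 was called lower at 11 d (-1.27, SE 0.46, edgeR adjusted p = 0.043) and 14 d (-1.42, SE 0.46, adjusted p = 0.023). The first call was lost without any 1 library of either group, with no expression filter and with DESeq2 (adjusted p up to 0.161), and the second without unirradiated replicate 1 or 3 or 14 d replicate 1 (adjusted p up to 0.104).

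Cyp2a5 and Cyp2a4, a coumarin hydroxylase and a steroid hydroxylase, varied widely among replicates. Cyp2a5 had 17.7, 55.2 and 169 CPM in the unirradiated libraries, 38.8, 18.8 and 154 at 8 d, 12.5, 34.4 and 50 at 11 d, and 21.5, 15.6 and 16.8 at 14 d. Replicate 3 was the highest in the first 3 of these groups, and the groups overlapped. Cyp2a5 was called lower at 14 d (-2.17, SE 0.78, edgeR adjusted p = 0.039). That call was lost without unirradiated replicate 3, where the change was -1.02, without any of the 14 d libraries, with the replicate number as a block (-1.56), with DESeq2 and with limma-voom, where the adjusted p rose to as much as 0.308. Cyp2a4 had 1.73, 6.57 and 17.7 CPM without irradiation and was not called at any time. These genes share sequence: 37.0% of the 50-base words of Cyp2a5 and 38.0% of those of Cyp2a4 occur in other genes, mostly in each other, so the split of reads between them is uncertain.

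Family CYP4 moved in both directions. Of 13 members 3 were higher and 4 lower at 8 d, 2 and 4 at 11 d, and 4 and 4 at 14 d. These were 23.1% higher and 30.8% lower at 8 d, where 13.0% and 10.6% of all genes were called. The shares were 15.4% and 30.8% at 11 d, beside 19.4% and 17.8% of all genes. At 14 d both were 30.8%, beside 20.0% and 18.9%. Without 11 d replicate 1 the CYP4 falls at 11 d numbered 2. Cyp4b1 (chromosome 4, 115624725 to 115647723, minus strand), which activates plant furans in lung, had 553, 703 and 460 CPM without irradiation, 224, 171 and 204 at 8 d, 93.2, 208 and 196 at 11 d, and 64.9, 95 and 74.7 at 14 d. The unirradiated, 8 d and 14 d libraries formed separate ranges, and of the 11 d libraries replicate 1 lay within the 14 d range. Its log2 change was -1.52 at 8 d (SE 0.26, edgeR adjusted p = 0.00079), -1.79 at 11 d (SE 0.26, adjusted p = 0.00012) and -2.87 at 14 d (SE 0.27, adjusted p = 2.0e-06). The pseudogene Cyp4b1-ps2 went from 9.33 ± 2.41 CPM to 1.44 ± 0.573 at 14 d (-2.68, SE 0.39, edgeR adjusted p = 8.7e-05), but 34.1% of its 50-base words occur in Cyp4b1 and its counts are uncertain. Of the 3 Cyp4a members, fatty acid hydroxylases, Cyp4a32 was lower at each time and Cyp4a31 and Cyp4a12b were not called. The Cyp4a32 call at 11 d (-1.44, SE 0.40) was lost without 11 d replicate 1 (adjusted p = 0.0587) and the change was -2.07 without 11 d replicate 2; 43.8% of its 50-base words occur in other genes. These Cyp4a genes were chosen after their values were seen.

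The CYP4 genes that rose were of subfamily Cyp4f, whose enzymes hydroxylate leukotrienes and fatty acids, and Cyp4v3. Of 7 Cyp4f members 3 were higher at 8 d, 2 at 11 d and 3 at 14 d, beside 13.0%, 19.4% and 20.0% of all genes. The count at 8 d was 1 without unirradiated replicate 1 or 2 or 8 d replicate 1. Cyp4f15 was the 1 Cyp4f member called lower, at 11 d and 14 d (-1.12 and -1.17), beside 17.8% and 18.9% of all genes. The Cyp4f15 call at 11 d was lost without unirradiated replicate 2 or 11 d replicate 1 (adjusted p up to 0.0741). Cyp4f18 (chromosome 8, 71988482 to 72009626, minus strand), known in mice as a leukotriene B4 hydroxylase of myeloid cells, had 5.27, 5.83 and 6.47 CPM without irradiation, 13, 12.9 and 8.25 at 8 d, 40.4, 20.9 and 15.3 at 11 d, and 43.4, 29.4 and 33.4 at 14 d. All irradiated libraries lay above the unirradiated ones, and all 14 d libraries above all 8 d libraries. The log2 change was 0.96 at 8 d (SE 0.30, edgeR adjusted p = 0.034), 2.13 at 11 d (SE 0.31, adjusted p = 0.0001) and 2.59 at 14 d (SE 0.31, adjusted p = 1.3e-05). At 11 d it was 1.63 without replicate 1, and the call at 8 d was lost without any 1 of the unirradiated libraries, without 8 d replicate 1 or 2 and with limma-voom, with an adjusted p up to 0.115. Markers of interstitial and lipid macrophages rose over the same times, as given above. A list of 7 neutrophil markers, chosen after the data had been seen, had 4 members higher at 8 d, 4 at 11 d and 2 at 14 d, and its summed levels were 35.5 to 89.2, 85.1 to 247, 105 to 169 and 89.3 to 111 CPM. The part of these cells in the Cyp4f18 result was not tested.

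Cyp4f39, the mouse counterpart of a human hydroxylase of very long fatty acids in skin, had 1.51, 1.66 and 2.78 CPM without irradiation, 7.73, 5.86 and 6.42 at 8 d, 6.09, 5.06 and 6.01 at 11 d, and 6.88, 6.86 and 3.13 at 14 d. Every irradiated library was above every unirradiated one, and the log2 change of 1.74 at 8 d (SE 0.30, edgeR adjusted p = 0.00086) was followed by 1.52 and 1.5. Cyp4v3, the mouse counterpart of a human fatty acid hydroxylase of the retina, had 69.3, 66.9 and 84.9 CPM without irradiation, 55.6, 56 and 51 at 8 d, 96.2, 65.5 and 75.7 at 11 d, and 103, 104 and 100 at 14 d. The 8 d libraries lay below and the 14 d libraries above the unirradiated range. It was called lower at 8 d (-0.44, SE 0.14, edgeR adjusted p = 0.036) and higher at 14 d (0.47, SE 0.14, adjusted p = 0.016). The first call was lost without unirradiated replicate 1 or 3, without any 8 d library, with library size alone and in a fit of the 2 groups alone (adjusted p up to 0.128). The second was lost without unirradiated replicate 1 or 2 (adjusted p up to 0.0710). Cyp4v3 shares 8.22% of its exon bases with Gm45753 on the same strand, and Cyp4f18 9.76% with Zfp961 on the opposite strand. Cyp4f16, chosen after its values were seen, was at 12.6 ± 1.07 CPM without irradiation and 18.6 ± 1.81 at 14 d (0.56, SE 0.15, edgeR adjusted p = 0.0080). Its call at 8 d (0.54, SE 0.15, edgeR adjusted p = 0.017) was lost without unirradiated replicate 1 or 2 or 8 d replicate 1 (adjusted p up to 0.0806).

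**Figure D4:**
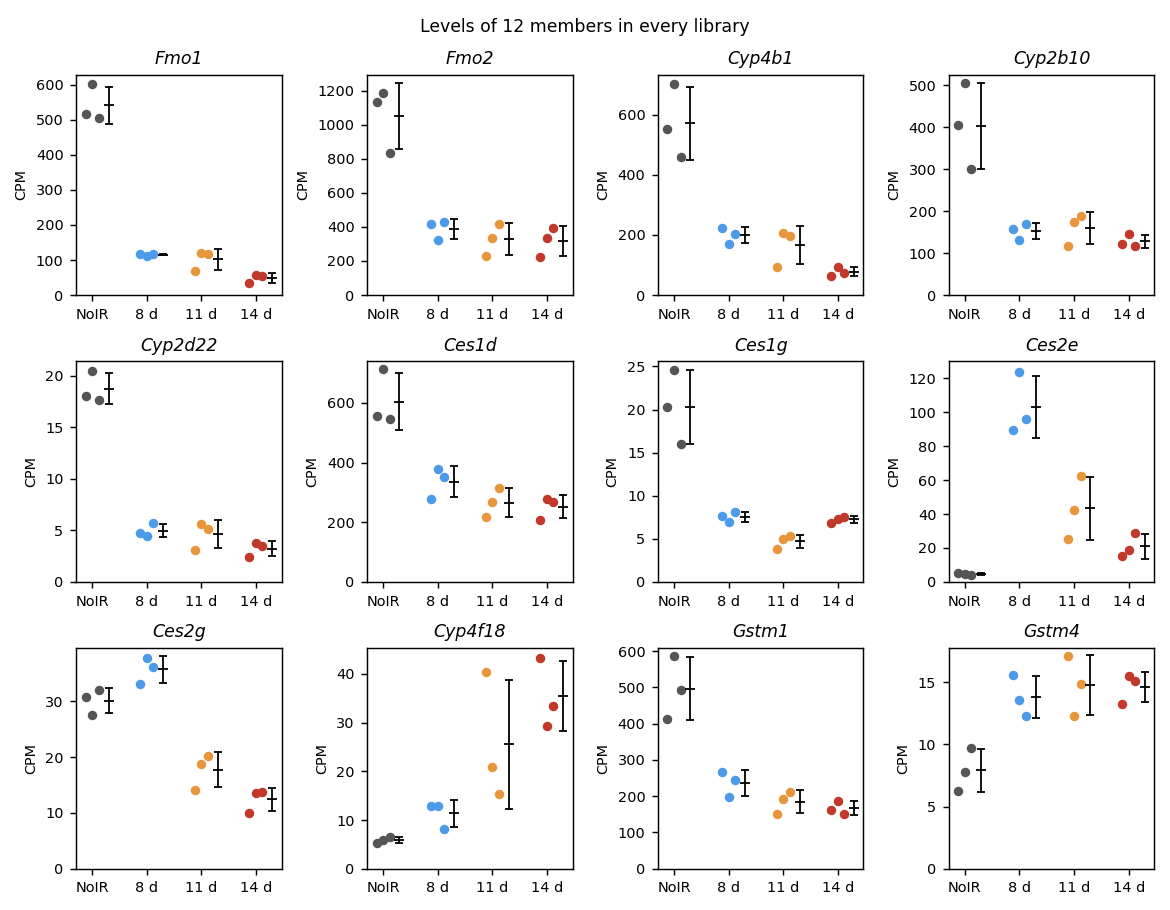
CPM of 12 members in every library of the 4 groups, each point 1 library, with the mean and SD (n = 3) beside them. Fmo1, Cyp4b1 and Cyp2d22 drop by 8 d, Ces2e peaks at 8 d (89.8 to 124 CPM), Cyp4f18 climbs to 29.4 to 43.4 CPM at 14 d, and Ces2g lies below its unirradiated range at 11 d and 14 d.

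Carboxylesterases were counted by subfamily, with no test between the subfamilies. Of 5 Ces1 members 4 were lower at each time and none was higher. Of 5 Ces2 members 2 were higher and none lower at 8 d, 2 and 1 at 11 d, and 1 and 2 at 14 d. Among all genes 13.0% were higher and 10.6% lower at 8 d, 19.4% and 17.8% at 11 d, 20.0% and 18.9% at 14 d. The 5 Ces2 members include the pseudogene Ces2d-ps, chosen here after its values were seen, which was not called at any time. Of its 50-base words 76.85% occur in other genes. The Ces2 rises numbered 1 at 8 d without unirradiated replicate 1 or 3 or 8 d replicate 1 or 2, and 1 at 11 d without unirradiated replicate 1, the calls of Ces2c having been lost; at 14 d they numbered 2 without unirradiated replicate 2. The Ces1 members lie on the minus strand of chromosome 8 between 93056728 and 93337308, and the Ces2 members on the plus strand of the same chromosome between 104831572 and 104969537. Ces1d had 555, 714 and 546 CPM without irradiation, 280, 379 and 350 at 8 d, 216, 267 and 314 at 11 d, and 208, 279 and 268 at 14 d. It was below the unirradiated range in every irradiated library, with a log2 change of -0.85 at 8 d (SE 0.18, edgeR adjusted p = 0.0034) and -1.26 at 14 d (SE 0.18, adjusted p = 6.2e-05). Ces1g, a liver lipid esterase, had 20.3, 24.5 and 16 CPM without irradiation, 7.59, 6.94 and 8.13 at 8 d, 3.85, 4.92 and 5.34 at 11 d, and 6.84, 7.35 and 7.55 at 14 d. Its 11 d libraries lay below all others, with a log2 change of -2.11 (SE 0.18, edgeR adjusted p = 1.8e-06) between -1.42 at 8 d and -1.48 at 14 d.

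Ces1e and Ces1f were also lower at each time. Ces1f was at 16.8 ± 1.91 CPM in unirradiated lung and at 8.36 ± 1.41, 4.40 ± 1.33 and 4.13 ± 0.717 CPM in time order (-2.02 at 14 d, SE 0.23, edgeR adjusted p = 7.4e-06). Ces1e, which anchors beta-glucuronidase in the liver endoplasmic reticulum, was at 14.0 ± 1.40, 8.06 ± 1.42, 4.39 ± 1.52 and 4.36 ± 0.473 CPM. Its log2 change was -1.68 at 14 d (SE 0.23, edgeR adjusted p = 4.8e-05). At 8 d it was -0.80 (SE 0.22), and this call was lost without unirradiated replicate 2 or 8 d replicate 2 (adjusted p up to 0.0751). Ces1b was at 1.39 ± 0.216 CPM without irradiation and was not called at any time.

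Ces2e (chromosome 8, 104926260 to 104934672, plus strand) had the largest rise of all members. Its libraries held 4.97, 4.58 and 4.12 CPM without irradiation, 89.8, 124 and 95.9 at 8 d, 25.2, 42.5 and 62.3 at 11 d, and 15, 18.6 and 29 at 14 d. All irradiated libraries lay above the unirradiated ones, and the 8 d libraries above all later ones. The change at 8 d was 22.6-fold, and the log2 change was 3.25 at 11 d (SE 0.31, edgeR adjusted p = 4.4e-06) and 2.20 at 14 d (SE 0.31, adjusted p = 5.3e-05). Ces2e was at 1.69 CPM per kb without irradiation, at 38.2 at 8 d and at 7.73 at 14 d. The summed level of the 10 carboxylesterase genes at 8 d, 510 ± 70.0 CPM, thus holds 103 ± 18.2 CPM of Ces2e.

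Ces2g (chromosome 8, 104961718 to 104969537, plus strand), the next member in the same cluster, had 30.7, 27.6 and 32 CPM without irradiation, 33.2, 37.8 and 36.3 at 8 d, 14.2, 18.8 and 20.2 at 11 d, and 10, 13.6 and 13.7 at 14 d. The 8 d libraries lay just above the unirradiated range without being called (0.25, SE 0.16, edgeR adjusted p = 0.28), and all later libraries below it. The log2 change was -0.76 at 11 d (SE 0.16, edgeR adjusted p = 0.0018) and -1.27 at 14 d (SE 0.16, adjusted p = 2.2e-05). Only 3.30% of the 50-base words of Ces2e and 3.07% of those of Ces2g occur in other genes. Ces2b and Ces2c, chosen after their values were seen, lie in the same cluster. Ces2b was at 3.66 ± 0.236 CPM without irradiation, 5.35 ± 0.788 at 8 d and 1.66 ± 0.219 at 14 d, and was called lower at 14 d (-1.14, SE 0.29, edgeR adjusted p = 0.0056). Ces2c was at 0.687 ± 0.502 CPM without irradiation, 1.90 ± 0.636 at 8 d and 2.10 ± 0.561 at 11 d. Its call at 8 d (1.45, SE 0.45, edgeR adjusted p = 0.029) was lost without unirradiated replicate 1 or 3, without 8 d replicate 1 or 2 and in a fit of the 2 groups alone (adjusted p up to 0.116), and that at 11 d (1.6) without unirradiated replicate 1 (adjusted p = 0.0503). Without unirradiated replicate 2 the changes were 2.21 and 2.36. Of its 50-base words 36.1% occur in other genes, mostly the pseudogene Ces2d-ps, so its counts are uncertain.

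Of 18 glutathione S-transferases 3 were lower at 8 d, 7 at 11 d and 10 at 14 d, and 3, 2 and 1 were higher. Those lower made up 16.7%, 38.9% and 55.6% in time order, beside 10.6%, 17.8% and 18.9% of all genes. Those higher made up 16.7%, 11.1% and 5.56%, beside 13.0%, 19.4% and 20.0% of all genes. The falls at 8 d numbered 1 without unirradiated replicate 2 or 8 d replicate 1. At 11 d the falls numbered 5 and the rises 1 without 11 d replicate 1, and the rises also 1 without unirradiated replicate 1 or 2 or another 11 d library. At 14 d the rises numbered 2 without unirradiated replicate 3. Gstm1 (chromosome 3, 108012255 to 108017973, minus strand) had 412, 586 and 492 CPM without irradiation, 266, 197 and 245 at 8 d, 151, 193 and 212 at 11 d, and 162, 188 and 151 at 14 d. Every irradiated library lay below the unirradiated ones, with a log2 change of -1.07 at 8 d (SE 0.17, edgeR adjusted p = 0.00048) and -1.57 at 14 d (SE 0.17, adjusted p = 6.6e-06). Gstm2 had 159, 219 and 220 CPM without irradiation, 157, 166 and 151 at 8 d, 89.4, 116 and 132 at 11 d, and 67.1, 79.2 and 81.3 at 14 d. Its 8 d libraries overlapped the unirradiated ones (-0.33, SE 0.16, edgeR adjusted p = 0.15), and the later ones did not (-1.39 at 14 d, SE 0.16, adjusted p = 1.1e-05). Gstm3 was at 6.12 ± 1.53 CPM without irradiation and 2.45 ± 0.793 at 14 d (-1.32, SE 0.29, edgeR adjusted p = 0.0022). Its call at 8 d (-0.91, SE 0.28) was lost without unirradiated replicate 2 or 3 or 8 d replicate 1 or 2 (adjusted p up to 0.116), and 28.8% of its 50-base words occur in other genes.

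The mu-class cluster on chromosome 3 held changes in both directions. Gstm4 and Gstm5, chosen after their values were seen, are members of the same class that rose. Gstm4 (108040408 to 108044894, minus strand), the annotated neighbour of Gstm1 among the members, had 6.25, 7.79 and 9.72 CPM without irradiation, 15.6, 13.6 and 12.3 at 8 d, 17.1, 12.3 and 14.8 at 11 d, and 13.3, 15.5 and 15.1 at 14 d. All irradiated libraries lay above the unirradiated ones, with log2 changes of 0.80, 0.90 and 0.88 (SE 0.18 each, edgeR adjusted p = 0.0052, 0.0014 and 0.0012). Gstm5 was at 12.8 ± 1.58 CPM without irradiation and 20.7 ± 2.12 at 8 d (0.69, SE 0.16, edgeR adjusted p = 0.0065), and was not called later. It shares 13.9% of its exon bases with 4933431E20Rik on the opposite strand. Gstm6 and Gstm7, at 3.18 ± 0.577 and 2.25 ± 0.843 CPM without irradiation, were not called at any time.

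Of the 4 alpha-class members 1 was lower at 8 d and 3 at 11 d and 14 d, beside 10.6%, 17.8% and 18.9% of all genes. Gsta2, chosen after its values were seen, was among those lower at 11 d and 14 d. Of its 50-base words 49.8% occur in other genes. Gsta3, which conjugates aflatoxin epoxide in mice, had 334, 460 and 322 CPM without irradiation, 184, 230 and 247 at 8 d, 107, 193 and 219 at 11 d, and 106, 125 and 169 at 14 d. All irradiated libraries were below the unirradiated range, and the log2 change was -1.48 at 14 d (SE 0.25, edgeR adjusted p = 0.00027). At 8 d it was -0.76 (SE 0.24), a call lost without unirradiated replicate 1 or 2, without any 8 d library and with library size alone (adjusted p up to 0.161). Gsta4 had 134, 210 and 195 CPM without irradiation, 151, 141 and 152 at 8 d, 99.4, 120 and 146 at 11 d, and 88.5, 97 and 94.7 at 14 d. Its unirradiated libraries overlapped those at 8 d and 11 d but not those at 14 d (-0.94, SE 0.17, edgeR adjusted p = 0.00045), and its call at 11 d (-0.56, SE 0.17) was lost without unirradiated replicate 2 or 3 or 11 d replicate 1 (adjusted p up to 0.0855). The pi-class genes Gstp1 and Gstp2 fell by 0.63 and 0.68 on the log2 scale at 14 d (SE 0.12 and 0.13, edgeR adjusted p = 0.00089 and 0.00065), but 33.7% and 54.3% of their 50-base words occur in other genes, mostly in each other. The Gstp2 call at 11 d (-0.35, SE 0.13, edgeR adjusted p = 0.042) was lost without unirradiated replicate 2 or 3, without any 11 d library, with no expression filter and in a fit of the 2 groups alone (adjusted p up to 0.197). Of 3 theta-class members 2 were lower at 14 d, beside 18.9% of all genes. The Gstt1 call (-0.65, SE 0.14, edgeR adjusted p = 0.0025) held under every setting. The Gstt3 change was -0.58 (SE 0.19, edgeR adjusted p = 0.029). Its call was lost without unirradiated replicate 2 or 3 or 14 d replicate 1 or 3 (adjusted p up to 0.113). Gstt3 shares 13.6% of its exon bases with Gm20441 on the same strand. Gsto1, an omega-class enzyme that reduces dehydroascorbate, was at 81.4 ± 20.6 CPM without irradiation and 115 ± 16.7 at 8 d. Its call at 8 d (0.50, SE 0.16) was lost without unirradiated replicate 1 or 2, without 8 d replicate 3 and in a fit of the 2 groups alone (adjusted p up to 0.182). The call at 11 d (0.47, SE 0.16) was lost without unirradiated replicate 1 or 2, without any 11 d library and with library size alone (adjusted p up to 0.159). The pi-class, theta-class and omega-class genes were chosen after their values were seen.

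Between 8 d and 14 d 2 members rose and 13 fell (edgeR quasi-likelihood test, n = 3 per group), where 8.10% of all genes were called higher and 7.29% lower, 15.4% in all. The median log2 change of the members was -0.42, beside -0.023 over all genes. By family 5 of 10 CES, 5 of 18 GST, 1 of 5 FMO, 1 of 13 CYP2 and 1 of 13 CYP4 members fell, and the 2 that rose were Cyp4f18 (1.64, SE 0.30, adjusted p = 0.0020) and Cyp4v3 (0.92, SE 0.14, adjusted p = 0.00073). Ces2e fell by 2.31 on the log2 scale (SE 0.29, edgeR adjusted p = 0.00021), Ces2g by 1.52 (SE 0.16, adjusted p = 7.9e-05), Cyp4b1 by 1.35 (SE 0.26, adjusted p = 0.0029), Fmo1 by 1.24 (SE 0.22, adjusted p = 0.0019) and Gstm2 by 1.06 (SE 0.16, adjusted p = 0.00063). Fmo2, Cyp2b10, Ces1g and Cyp3a13 were not called between these times, with log2 changes of -0.29 (SE 0.24), -0.25 (SE 0.20), -0.06 (SE 0.18) and -0.37 (SE 0.24). Without 14 d replicate 1 the falls numbered 8. Those of GST genes numbered 2 without it and 3 without 8 d replicate 3, and the CYP2 fall, that of Cyp2j9, was lost without either.

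Other genes of the pathway were counted from lists of regulators, redox partners, other enzymes and transporters. Among 11 regulators tested 0 were higher and 1 lower at 8 d, 1 and 2 at 11 d, and 2 and 1 at 14 d. The shares over all genes were 13.0% and 10.6%, 19.4% and 17.8%, and 20.0% and 18.9%. Nfe2l2, chosen after its values were seen, was called higher at 11 d and 14 d. Its mean was 149 CPM without irradiation and 186 CPM at each of these times. The 2 calls were lost under 7 and 6 settings (edgeR adjusted p up to 0.0912 and 0.117). Ahr itself had 72.9, 62.1 and 98 CPM without irradiation, 65.9, 44.3 and 57.1 at 8 d, 37.5, 37.2 and 36.9 at 11 d, and 43.3, 48.2 and 38.1 at 14 d, and was lower at 11 d (-1.06, SE 0.18, edgeR adjusted p = 0.00033) and 14 d (-0.85, SE 0.18, adjusted p = 0.0014). Its partner Arnt was called lower at 11 d (-0.38, SE 0.12, edgeR adjusted p = 0.026) and Tiparp, a target and repressor of Ahr, at 8 d (-0.58, SE 0.15, adjusted p = 0.012). The Arnt call was lost without unirradiated replicate 1 or 3 or 11 d replicate 1 or 3 (adjusted p up to 0.118), and that of Tiparp without unirradiated replicate 1 (adjusted p = 0.0777). Rxra, the retinoid X receptor that pairs with nuclear receptors for drugs and lipids, was higher at 14 d (0.48, SE 0.15, edgeR adjusted p = 0.021), a call lost without unirradiated replicate 2 or 3 or 14 d replicate 1 or 2 (adjusted p up to 0.103). Of 6 P450 redox partners 1, 2 and 5 were lower at the 3 times and none was higher. The count was 2 at 8 d without 8 d replicate 2, and 1 at 11 d without unirradiated replicate 2 or 3 or 11 d replicate 1 or 2. Pgrmc1, a haem-binding partner of P450 enzymes, was at 262 ± 22.3 CPM without irradiation and 131 ± 5.71 at 14 d (-1.0, SE 0.14, edgeR adjusted p = 5.8e-05), and Cyb5r3, the reductase of cytochrome b5, and Cyb5a and Cyb5b, its cytochromes, were called lower at 14 d (log2 change -0.81, -0.85 and -0.39).

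Of 22 other oxidoreductases and hydrolases 1 was higher and 8 lower at 8 d, and 12 and 13 were lower at 11 d and 14 d with none higher. Shares of all genes called higher were 13.0%, 19.4% and 20.0% in time order, and shares called lower 10.6%, 17.8% and 18.9%. The 8 falls at 8 d numbered 5 without unirradiated replicate 2. Cbr2, a carbonyl reductase abundant in lung, had 3633, 5552 and 4215 CPM without irradiation, 2082, 1670 and 2191 at 8 d, 777, 1551 and 1657 at 11 d, and 639, 932 and 701 at 14 d, a log2 change of -2.56 at 14 d (SE 0.27, edgeR adjusted p = 5.3e-06). Its irradiated libraries all lay below the unirradiated ones, as did those of the aldehyde oxidase Aox3, at 213 ± 7.79 CPM without irradiation and 62.1 ± 16.0 at 14 d (-1.78, SE 0.18, edgeR adjusted p = 3.8e-06). Aldh2, the mitochondrial aldehyde dehydrogenase, and Maob, a monoamine oxidase, changed by -1.09 and -0.89 at 14 d (SE 0.16 and 0.13). Of 18 other conjugating enzymes 1 was higher and 2 lower at 8 d, 2 and 5 at 11 d, and 2 and 6 at 14 d. The shares of all genes just given stand beside these counts too. The falls at 11 d numbered 2 to 3 without unirradiated replicate 2 or 3 or 11 d replicate 2 or 3, and the rises at 14 d 1 without unirradiated replicate 1 or 2 or 14 d replicate 1 or 3. Inmt, a methyltransferase of amines that is also on the alveolar fibroblast list, went from 829 ± 67.4 to 110 ± 59.2 CPM at 14 d (-2.92, SE 0.37, edgeR adjusted p = 2.5e-05), and the phenol sulphotransferase Sult1a1 from 98.4 ± 33.9 to 28.6 ± 6.72 (-1.78, SE 0.28, adjusted p = 0.00017). Gstk1, the kappa-class transferase of mitochondria and peroxisomes, was lower at 14 d (-0.94, SE 0.19, edgeR adjusted p = 0.0014), and the glucuronosyltransferase Ugt1a7c was higher at 11 d (1.03, SE 0.23) and 14 d (1.67, SE 0.23, adjusted p = 4.4e-05).

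Of 7 efflux transporters 1 was higher and 2 lower at 8 d, and 2 were higher and 2 lower at 11 d and at 14 d. Beside them, 13.0%, 19.4% and 20.0% of all genes were higher in time order, and 10.6%, 17.8% and 18.9% lower. The second rise at 11 d, of Abcc4, was lost under 7 settings, and the falls of Abcg2 at 8 d and 11 d under 5 and 4. The mouse P-glycoprotein genes went apart: Abcb1b had 18, 15.8 and 14 CPM without irradiation, 40.4, 48.8 and 42.7 at 8 d, 38.4, 40 and 48.5 at 11 d, and 37.7, 37.4 and 48.5 at 14 d. Abcb1a was at 107 ± 19.4 CPM without irradiation and 47.6 ± 7.99 at 14 d. The irradiated libraries of Abcb1b all lay above the unirradiated range, with log2 changes of 1.46, 1.41 and 1.37 (SE 0.15 each), and Abcb1a changed by -0.78, -1.04 and -1.16 (SE 0.16 each), all called by edgeR. Abcg2, another exporter of xenobiotics, was lower at 14 d (-0.89, SE 0.19, edgeR adjusted p = 0.0017) and Abcc4, which exports conjugates and cyclic nucleotides, was higher (0.74, SE 0.16, adjusted p = 0.0018).

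**Figure D5:**
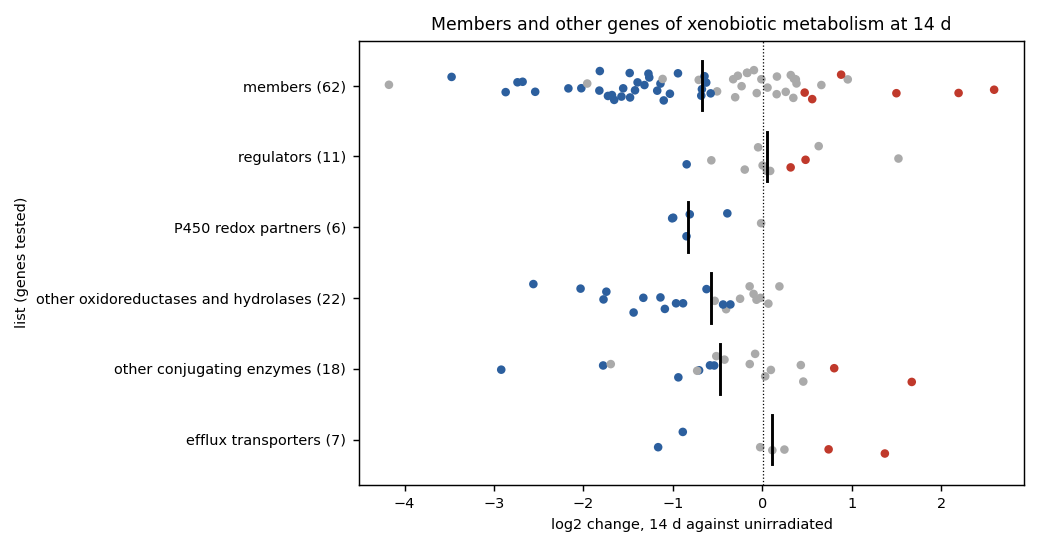
Log2 change at 14 d against unirradiated lung of the 62 members and of the genes of 5 other lists, each point a gene (red higher, blue lower, grey not called), with the list median as a bar. The medians of the members and of the redox partners lie at -0.68 and -0.83, and those of the regulators and efflux transporters at 0.052 and 0.11.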

How the data were processed

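Total RNA of mouse lung was sequenced in 12 libraries, 3 per group, from libraries made with a directional kit, per the labels' protocols. The submitters' processing notes name TopHat and mm10; the sources used here do not name the program, annotation or strand setting behind the counts. Values deposited by the authors are read counts per gene symbol, 23282 lines per library; 35 symbols on several lines were summed, which left 23238. Of these the default expression filter of edgeR 4.0.16 (R 4.3.3) kept 16484. Groups were compared with its quasi-likelihood F test in 1 fit of all 12 libraries with TMM scaling, with calls made below an adjusted p of 0.05 (Benjamini-Hochberg over all genes kept). The SE was taken as the size of the log2 change over the root of its F statistic. CPM were computed with TMM-scaled library sizes, and ± gives the SD. With 19624554 to 27765751 counts per library, precision falls with the counts of a gene, as for Cyp1a1. Coordinates and exon lengths come from GENCODE M21 (mm10), promoter windows from RefSeq (GRCm38.p6). Shared 50-base words of the GENCODE M21 transcripts mark genes whose counts may be split between copies. More than 25% are shared in 13 members. Per family, up to 4 expressed members with the highest level per length and up to 4 with the largest change were named (28 genes), and, per pathway list, up to 4 genes by their p for any difference among the groups; others were chosen after their values were seen. The values of 1 member are not reported here, though it stays in the counts and sums. Members and lists were chosen with earlier results of these data known. The call procedure was tested on simulated data. The alternatives tried were DESeq2 1.42.0 and limma-voom (limma 3.58.1), the replicate number as a block, 2 other scalings (median of ratios and library size alone), 2 other filters (none, and 10 counts in each sample of a group), the 2 groups alone and each library left out.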

Additional observations from a re-analysis of the deposited data

Results flagged for a closer look

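For 15 members the change against unirradiated lung differed between 14 d and 8 d, tested directly as 14 d against 8 d with edgeR's quasi-likelihood test (adjusted p below 0.05 over all 16484 genes, n = 3 per group). The differences in log2 change, 14 d minus 8 d, were -2.31 for Ces2e, -1.68 for Ces2b, -1.52 for Ces2g, -1.01 for Ces1f and -0.89 for Ces1e among the carboxylesterases. They were -1.24 for Fmo1, -1.35 for Cyp4b1 and -1.0 for Cyp2j9 among the monooxygenases, with 1.64 for Cyp4f18 and 0.92 for Cyp4v3 in the other direction. Among the glutathione S-transferases they were -1.06 for Gstm2, -0.66 for Gsta4, -0.56 for Gstt1, and -0.5 for each of Gstp1 and Gstp2. The groups at 14 d and 8 d did not overlap in any of the 15. The 15 were picked by this test on the same libraries, so this adds no support. Some members that were not called, Cyp2d22 and Gstm1 among them, did not overlap either. The calls of Ces1e, Cyp2j9, Gsta4, Gstp2 and Gstt1 were lost without 14 d replicate 1, with an adjusted p up to 0.0659, 0.0612, 0.0721, 0.0642 and 0.0784 over the settings tried. Those of Ces1e, Cyp2j9, Gsta4 and Gstt1 were also lost without 8 d replicate 3, that of Ces1e without 8 d replicate 1 or 14 d replicate 3, and that of Gstt1 without 8 d replicate 2 or 14 d replicate 2 and in a fit of the 2 groups alone.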

How the results depend on the processing

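With the settings other than leaving out a library, the counts of members called higher and lower ranged from 6 to 9 and 17 to 21 at 8 d, 5 to 7 and 26 to 29 at 11 d, 6 and 30 to 32 at 14 d, and 2 to 3 and 13 to 17 between 8 d and 14 d. Leaving out each library in turn gave 4 to 7 and 15 to 18 at 8 d, 4 to 6 and 21 to 28 at 11 d, 5 to 8 and 28 to 32 at 14 d, and 2 to 3 and 8 to 14 between 8 d and 14 d. The lowest counts, 4 rises at 8 d and 8 falls between 8 d and 14 d, came without unirradiated replicate 1 and 14 d replicate 1. Of 114 calls on members in the 4 comparisons 86 held under every setting, 28 were lost under at least 1, and none was reversed. The pathway lists held 78 calls over the 3 comparisons, 73 to 85 under other settings and 64 to 70 without an unirradiated library. The deviations of same-numbered libraries correlated from -0.35 to 0.29, above 0.1 in 5 of 18 pairs, and the labels tie a number to no shared animal or batch, so the numbers were not taken as pairs. With the replicate block 9 members were higher and 21 lower at 8 d, 7 and 28 at 11 d, 6 and 32 at 14 d, and 3 and 17 between 8 d and 14 d. Of 12 libraries 8 correlated best with their own number, a hint from the data and not from the design. Libraries of different numbers correlated over a wider range, from -0.44 to 0.46. Over all genes, 3891 calls at 8 d fell to 2593 without unirradiated replicate 1, and 2536 between 8 d and 14 d to 1600 without 8 d replicate 3 and 1392 without 14 d replicate 1. Scaling by library size alone made 64.3% of all calls at 8 d rises, in place of 55.0%. Removing Rn45s, up to 6.27% of counts, and haemoglobin genes, added after the data were seen, lost no call on a member.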
